A study of Mus musculus with 15 samples.

Results

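The P2X, P2Y and adenosine receptors listed for study here are 10 genes, P2rx2 to P2rx7, P2ry1, P2ry2, P2ry14 and Adora1, and they were found by gene symbol in the probe annotation of the arrays. Of the 10 genes, 9 were measured, among 19938 genes in all, and Adora1, the A1 adenosine receptor, was not analysed here. The 9 genes were carried by 10 probe sets of 35556, since P2rx3 had a second one. The arrays were Affymetrix whole-transcript microarrays hybridised with RNA from large sensory neurons of mouse dorsal root ganglia, the clusters of nerve cell bodies that serve skin and muscle. There were 15 arrays in 5 groups of 3 biological replicates, from C57BL/6 mice that all carried a green fluorescent reporter driven by the promoter of CGRP. CGRP, calcitonin gene-related peptide, is released by many neurons that signal pain. Neurons of lumbar ganglia 2 to 5 with a diameter above 26.9 µm were sorted by that reporter and by a tracer, a fluorescent wheat germ agglutinin given in the gastrocnemius muscle or the saphenous nerve 5 days before the mice were killed.

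The skin groups held CGRP-positive neurons that project to skin. They came from mice given complete Freund's adjuvant in the paw (CFA paw) or saline in the paw (saline paw), and CFA is an oil emulsion of killed mycobacteria used to inflame tissue. In the muscle groups were CGRP-negative neurons that project to muscle, from mice given CFA in the muscle (CFA muscle), acid in the muscle (acid muscle) or saline in the muscle (saline muscle). The saline groups are the controls of the study, whose stated interest is in mechanosensitive proteins of these afferents after inflammation. The skin and muscle groups differ in target tissue, in CGRP status and in where the injection and the tracer were given, and these cannot be told apart. The labels give no ages or sexes and do not say whether ganglia of several mice were pooled.

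P2X receptors are cation channels that open when extracellular ATP binds, and each channel is built of several subunits. P2Y receptors and adenosine receptors are coupled to G proteins and respond to nucleotides such as ADP, ATP, UTP and UDP-sugars, or to adenosine. ATP set free by stretched, injured or inflamed tissue can excite sensory nerve endings through P2X3 and P2X2/3 channels, and enzymes on the cell surface break it down to adenosine, which dampens pain signalling through the A1 receptor.

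All values below are the deposited log2 expression of a probe set, and a difference of 1 is a doubling. Levels are compared between groups for 1 gene at a time and never between genes, since probe sets differ in brightness. A gene counts as dim when its mean lies under 2.44, the 95th percentile of 1194 olfactory and vomeronasal receptor genes. P2ry14 was dim, with a mean of 1.91 over all arrays, and the other 8 measured genes were not. The lowest of these were P2ry2 (mean 3.22), P2rx2 (3.25) and P2rx5 (3.27). Differences were tested with limma over all 19938 genes, with Benjamini-Hochberg adjustment and a threshold of 0.05, and a gene past it is said to be called.

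Saline paw replicate 1 stood apart from the other skin arrays. The first principal component, the axis along which the arrays varied most, held 55.8% of the variance. Saline paw replicate 1 scored −22.3 there, inside the span of the 9 muscle arrays (−50.5 to −5.67). The other 5 skin arrays scored from 32.5 to 58.1. Whether a wrong label or degraded RNA gave this score was not tested. The SD over all genes was 1.42 on this array, 1.66 to 1.80 on the other 5 skin arrays and 1.28 to 1.55 on the 9 muscle arrays, so the skin and muscle comparisons and the CFA effect in skin were also run without it. In the skin neurons 7 of 7 measured peptidergic nociceptor markers were higher than in muscle neurons of the saline and CFA groups (median log2 difference 2.33), and Calca, which encodes CGRP, was not analysed here. Of 15 non-peptidergic nociceptor markers 8 were lower and 2 were higher in skin (median −0.67). They went both ways among receptors of neurons known to supply skin: Mrgprd was at 5.31 in skin and 7.31 in muscle, while Mrgpra3 was at 5.64 in skin and 3.96 in muscle and Mrgprx1 at 4.84 in skin and 3.04 in muscle. Of 11 markers of large myelinated neurons 0 were dim and 4 were called higher in skin. Their differences were positive for 8 and negative for 3, from −0.22 to 1.66 (median 0.83). The highest was that of the neurofilament gene Nefh (10.9 in skin neurons and 9.22 in muscle neurons). Of 14 macrophage markers 10 were dim and 0 were called. Of 7 Schwann cell markers 2 were lower in skin, with array means from 4.67 to 4.86 in skin and from 4.71 to 5.95 in muscle. Satellite glia markers, measured for 10 genes with 0 of them dim, had array means from 5.12 to 5.73 in skin and from 5.07 to 5.71 in muscle, and 0 were called. Of all genes, 11.6% were called higher and 3.12% lower in skin in this comparison with all arrays. Without saline paw replicate 1 the non-peptidergic markers had 10 lower and 3 higher in skin, and the Schwann cell markers 3 lower. Of the large myelinated markers 7 were higher and 0 lower in that fit. The macrophage markers then had 2 lower and the satellite glia markers 3 higher, where 20% of all genes were higher and 12.6% lower. The part of other cells in the results below was not tested.

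**Figure D1:**
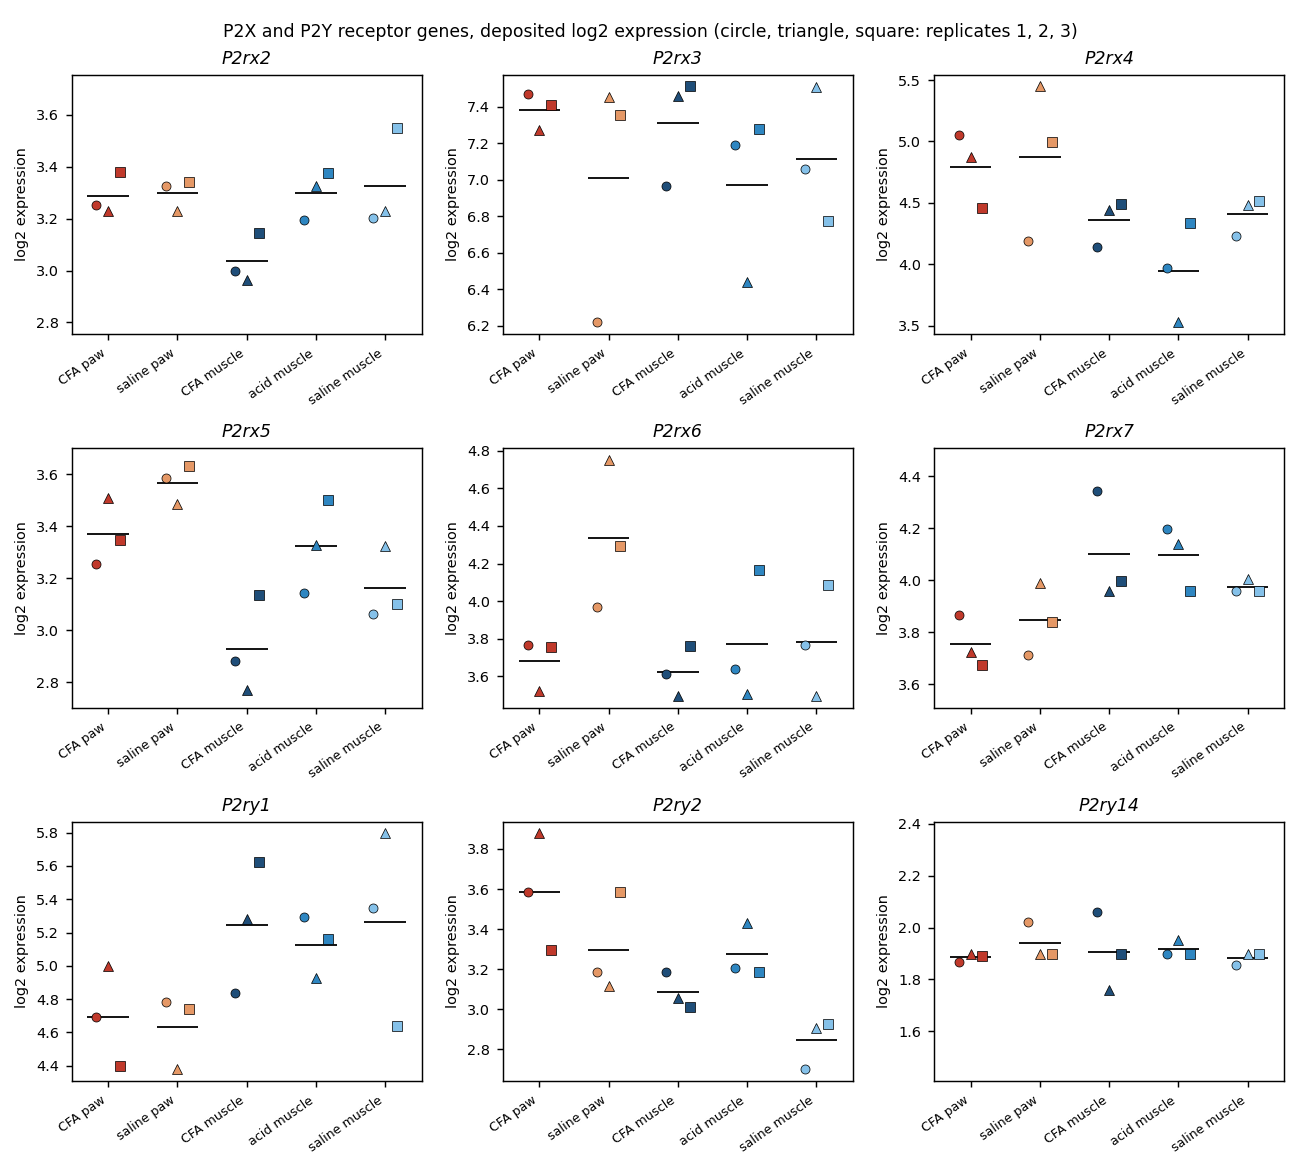
Deposited log2 expression of the 9 measured receptor genes on each of the 15 arrays, with 1 panel and 1 scale per gene. Circles, triangles and squares are replicates 1, 2 and 3, and the black line is the mean of a group. P2rx5 and P2ry2 had higher means in both skin groups than in saline and CFA muscle, and the circle of saline paw lies apart for P2rx3 at 6.22.

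Between skin neurons and muscle neurons of the saline and CFA groups, P2rx5 and P2ry2 were higher in skin, by 1.34-fold and 1.39-fold. The 7 other measured receptors did not pass the test. This comparison sets the mean of CFA paw and saline paw against the mean of CFA muscle and saline muscle, and leaves out acid muscle. For P2rx5 acid muscle had a mean of 3.32, against 3.37 in CFA paw and 3.57 in saline paw. For P2ry2 acid muscle had a mean of 3.28, against 3.59 in CFA paw and 3.30 in saline paw. The comparison called 2 of 9 receptors, both higher in skin. Of all genes 11.6% were higher, 3.12% were lower and 14.7% passed in either direction. At an unadjusted p under 0.05 there were 5 receptors, against 30.3% of all genes. The median log2 difference was 0.11 over the 9 receptors and −0.04 over all genes. The 6 skin arrays and the 6 muscle arrays overlapped for each receptor, and 5.91% of all genes had no overlap. A gene can be higher because more of the sorted cells express it or because each cell holds more of its RNA, and these cannot be told apart.

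P2rx3 encodes the ATP-gated subunit most closely tied to pain-sensing neurons, where it forms channels by itself or with P2X2. Its values were 7.47, 7.27 and 7.41 in CFA paw, 6.22, 7.46 and 7.36 in saline paw, 6.97, 7.46 and 7.51 in CFA muscle, 7.19, 6.44 and 7.28 in acid muscle, and 7.06, 7.51 and 6.78 in saline muscle. All 5 groups overlapped, and the lowest array was saline paw replicate 1. The difference between skin and muscle neurons was −0.02 (95% interval −0.48 to 0.45, adjusted p = 0.968, limma). Without saline paw replicate 1 it was 0.18. It was −0.61 after quantile normalization (adjusted p = 0.0055), −0.66 after cyclic loess (adjusted p = 0.000729) and −0.82 with array SD added to the model (adjusted p = 0.00947). P2rx3 was thus lower in skin neurons under these 3 settings and not in the deposited values. Array SD itself differed with tissue, at 1.66 to 1.80 on 5 skin arrays and 1.28 to 1.55 on the 9 muscle arrays. Only saline paw replicate 1, at 1.42, was a skin array in the muscle range. The model with array SD, here and below, therefore cannot separate SD from tissue well and leans on that array. The second probe set of P2rx3 was at the dim level, with means from 2.14 ± 0.21 in CFA paw to 2.55 ± 0.09 in CFA muscle (SD, n = 3 each).

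P2rx2 encodes the partner subunit of the P2X2/3 channel. It averaged 3.29 ± 0.08 in CFA paw, 3.30 ± 0.06 in saline paw, 3.04 ± 0.10 in CFA muscle, 3.30 ± 0.09 in acid muscle and 3.33 ± 0.19 in saline muscle (SD, n = 3 each). CFA muscle was the group with the lowest mean, with arrays at 3.00, 2.96 and 3.15. Skin minus muscle, the difference was 0.11 (95% interval −0.08 to 0.30, adjusted p = 0.409, limma).

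P2rx5 encodes a P2X subunit whose rodent channel carries only small currents. It read 3.26, 3.51 and 3.35 in CFA paw, 3.59, 3.48 and 3.63 in saline paw, 2.88, 2.77 and 3.14 in CFA muscle, 3.14, 3.33 and 3.50 in acid muscle, and 3.06, 3.32 and 3.10 in saline muscle. The skin arrays ran from 3.26 to 3.63 and the saline and CFA muscle arrays from 2.77 to 3.32, with only a narrow overlap, while acid muscle reached 3.50. The skin minus muscle difference was 0.42 (SE 0.10, 95% interval 0.21 to 0.64, adjusted p = 0.011, limma). It was 0.41 between the saline groups (adjusted p = 0.159) and 0.44 between the CFA groups (adjusted p = 0.0798), which share their arrays with the pooled comparison. The skin minus muscle difference of P2rx5 without saline paw replicate 1 was 0.42 (adjusted p = 0.00803), and that between the saline groups was 0.40 (adjusted p = 0.0903). With array SD in the model the difference was 0.41 and was no longer called (adjusted p = 0.136).

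P2rx4 encodes a calcium-permeable P2X subunit known in microglia and macrophages as well as in neurons. Its values were 5.05, 4.87 and 4.46 in CFA paw, 4.19, 5.45 and 4.99 in saline paw, 4.14, 4.44 and 4.49 in CFA muscle, 3.97, 3.53 and 4.33 in acid muscle, and 4.23, 4.48 and 4.52 in saline muscle. The lowest skin array was again saline paw replicate 1. Between skin and muscle it differed by 0.45 (95% interval 0.03 to 0.87, adjusted p = 0.138, limma), and without that array it was 0.62 and called (adjusted p = 0.00803). With array SD in the model it was −0.21, so its direction is not settled.

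P2rx6 encodes a subunit that forms few working channels without a partner. It averaged 3.68 ± 0.14 in CFA paw, 4.34 ± 0.39 in saline paw, 3.62 ± 0.13 in CFA muscle, 3.77 ± 0.35 in acid muscle and 3.78 ± 0.30 in saline muscle (SD, n = 3 each), so saline paw had the highest mean. Skin and muscle neurons differed by 0.31 (95% interval −0.02 to 0.63, adjusted p = 0.193, limma). Without saline paw replicate 1 it was 0.40 and called (adjusted p = 0.0481), and without saline paw replicate 2 it was 0.20 (adjusted p = 0.432), so the size depended on single arrays of that group.

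P2rx7 encodes a channel that opens at high ATP and is best known for releasing interleukin-1β from immune cells. It averaged 3.75 ± 0.10 in CFA paw, 3.85 ± 0.14 in saline paw, 4.10 ± 0.21 in CFA muscle, 4.10 ± 0.13 in acid muscle and 3.97 ± 0.03 in saline muscle (SD, n = 3 each). Skin minus muscle gave −0.23 (95% interval −0.44 to −0.03, adjusted p = 0.111, limma), and −0.20 without saline paw replicate 1 (adjusted p = 0.123). Skin arrays ran from 3.67 to 3.99 and saline and CFA muscle arrays from 3.96 to 4.34, and 3 muscle arrays shared the lowest value of 3.96. Of the 6 measured genes of the inflammasome that acts with P2X7 (median −0.01), Il1b was called lower in skin (−0.46, adjusted p = 0.0415), but it was dim and lost the call in 13 of 21 alternatives. Casp1, the caspase that cuts its precursor, was dim too (mean 2.43 over all arrays), and it differed by 0.48 (adjusted p = 0.0585). Both were called when saline paw replicate 1 was left out, Il1b at −0.53 (adjusted p = 0.00843) and Casp1 at 0.56 (adjusted p = 0.0162). Of all genes 32.6% were called then.

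P2ry1 encodes a receptor for ADP that acts through Gq proteins. It read 4.69, 5.00 and 4.40 in CFA paw, 4.78, 4.38 and 4.74 in saline paw, 4.84, 5.28 and 5.63 in CFA muscle, 5.29, 4.93 and 5.16 in acid muscle, and 5.35, 5.80 and 4.64 in saline muscle. Both skin groups had lower means than each muscle group. The overlap with saline and CFA muscle came from saline muscle replicate 3 and CFA muscle replicate 1. The skin minus muscle difference was −0.59 (SE 0.19, 95% interval −0.997 to −0.18) with an adjusted p of 0.0503, just outside the threshold (limma). With each of the 12 arrays left out in turn it ran from −0.75 to −0.46. It was called without saline paw replicate 1 (adjusted p = 0.0264), saline muscle replicate 3 (adjusted p = 0.0114) or CFA muscle replicate 1 (adjusted p = 0.0362), and not without any of the others, with an adjusted p of 0.128 at most. It was −0.83 after quantile normalization (adjusted p = 0.00908), −0.86 after cyclic loess (adjusted p = 0.00733) and −0.76 with array SD in the model (adjusted p = 0.135).

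P2ry2 encodes a receptor for ATP and UTP that also acts through Gq. It read 3.59, 3.88 and 3.29 in CFA paw, 3.19, 3.12 and 3.58 in saline paw, 3.19, 3.06 and 3.01 in CFA muscle, 3.21, 3.43 and 3.19 in acid muscle, and 2.70, 2.91 and 2.93 in saline muscle. Saline muscle had the lowest mean, and its arrays did not overlap with those of saline paw, CFA muscle or acid muscle. Of all genes 8.11%, 3.63% and 3.98%, in that order, likewise lay above saline muscle without overlap. The skin minus muscle difference was 0.48 (SE 0.12, 95% interval 0.23 to 0.73, adjusted p = 0.0143, limma). It was 0.45 between the saline groups (adjusted p = 0.183) and 0.50 between the CFA groups (adjusted p = 0.0909). Leaving out saline paw replicate 1 gave 0.50 for skin minus muscle (adjusted p = 0.00644) and 0.51 between the saline groups (adjusted p = 0.0658). With array SD in the model it was 0.50 and was not called (adjusted p = 0.118).

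The promoters of P2ry2 and P2ry1 are shown because these receptors for ATP and for ADP share a G protein and their differences between skin and muscle had opposite signs. Each run is the 250 bases before the annotated start, from RefSeq on GRCm38.p6, 5′ to 3′ on the strand of the gene, with the GC box GGGCGG and its reverse complement CCGCCC in capitals. P2ry2 lies at chr7:100996568-101012053 and its upstream run at chr7:101012054-101012303 on the minus strand. P2ry1 lies at chr3:61002785-61008982 and its run at chr3:61002535-61002784 on the plus strand.
P2ry2: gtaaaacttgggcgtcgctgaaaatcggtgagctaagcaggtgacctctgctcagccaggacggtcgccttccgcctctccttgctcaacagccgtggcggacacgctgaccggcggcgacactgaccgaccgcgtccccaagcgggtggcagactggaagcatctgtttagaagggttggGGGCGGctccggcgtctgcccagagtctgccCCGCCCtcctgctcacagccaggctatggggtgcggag
P2ry1: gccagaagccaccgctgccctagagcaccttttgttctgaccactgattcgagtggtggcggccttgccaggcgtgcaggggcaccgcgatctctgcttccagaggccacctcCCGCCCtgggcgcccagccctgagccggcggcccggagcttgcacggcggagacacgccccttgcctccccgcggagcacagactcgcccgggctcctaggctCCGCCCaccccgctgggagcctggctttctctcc
Both runs hold 2 GC boxes, and 65.2% and 70.8% of their bases are G or C for P2ry2 and P2ry1. On either strand, neither holds the letters CCAAT or TATAAA. Of 32851 promoters of the same length, 32.7% hold the GC box, 33.8% hold CCAAT and 12.4% hold TATAAA. Of the 10 listed receptors 7 had a promoter in the table.

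P2ry14 encodes a receptor for UDP-glucose that acts through Gi proteins. Its arrays ran from 1.87 to 2.02 in skin and from 1.76 to 2.06 in all muscle groups, under the dim limit throughout. Its 15 arrays held only 9 distinct values, and its differences are not interpreted.

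Ordered by group mean within a gene, P2ry14 included, neighbouring groups differed by less than the 95% interval of a difference in 35 of 36 steps. The exception was P2rx6, where saline paw lay 0.55 above saline muscle, the next group. Sorting sets the closest groups side by side, so small steps are built in and the count is no test of the receptors. The pooled SD within groups ran from 0.11 for P2rx2 to 0.43 for P2rx3 among the 8 receptors that were not dim, and the median over all genes was 0.23.

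**Figure D2:**
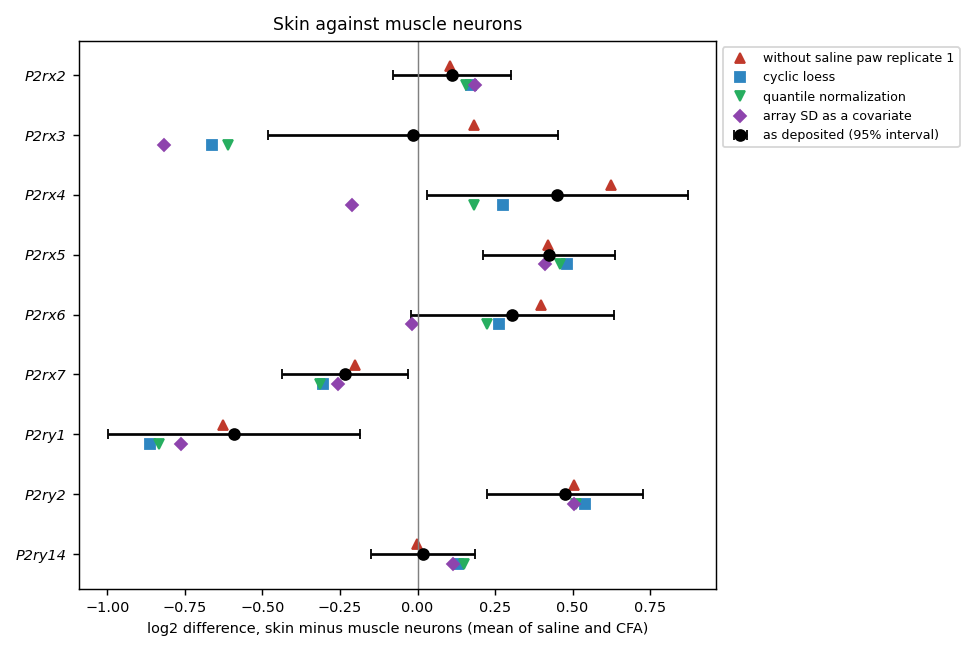
Log2 difference of the 9 receptors between skin and muscle neurons (mean of the saline and CFA groups of each). Black circles with bars are the deposited values with their 95% interval. The coloured marks are the same difference after quantile normalization, after cyclic loess, with array SD in the model and without saline paw replicate 1. P2rx5 and P2ry2 kept a difference above 0.38 under each setting shown, while P2rx3 ran from −0.82 to 0.18.

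In the separate comparisons of saline paw with saline muscle and of CFA paw with CFA muscle, 0 of 9 receptors were called, where 2.04% and 6.41% of all genes were. At an unadjusted p under 0.05 there were 4 and 3 receptors, against 16.9% and 20.8% of all genes. After saline, the arrays of P2rx5 and P2ry2 did not overlap and were higher in skin (8.11% of all genes were higher without overlap). After CFA, P2rx2, P2rx5 and P2ry2 lay above and P2rx7 below the muscle arrays without overlap, where 18.9% of all genes lay above and 17.1% below. The difference of P2rx7 between the CFA groups was −0.35 (adjusted p = 0.153, limma) and that of P2rx6 between the saline groups was 0.55 (adjusted p = 0.211). Without CFA muscle replicate 1 that of P2rx7 was −0.22. Between the saline groups, P2rx6 (0.74, adjusted p = 0.029) and P2rx4 (0.81, adjusted p = 0.0273) were called without saline paw replicate 1, where 19.2% of all genes were called. When saline paw replicate 2 was left out they were 0.34 for P2rx6 (adjusted p = 0.665) and 0.18 for P2rx4 (adjusted p = 0.887), against 0.46 for P2rx4 with all arrays.

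Over both saline and CFA, leaving out saline paw replicate 1 called 5 of the 9 receptors between skin and muscle, with P2rx4, P2rx5, P2rx6 and P2ry2 higher and P2ry1 lower in skin. The share of all genes called then was 32.6%, against 14.7% with all arrays. The median log2 difference was 0.18 over the receptors and −0.06 over all genes.

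Of 9 further listed genes with P2rx, P2ry or Adora symbols, 6 were measured and 5 of these were dim: P2rx1, P2ry4, P2ry10, P2ry12 and P2ry13. A symbol alone does not show that a gene encodes a receptor for nucleotides. P2ry6, a receptor for UDP, averaged 2.72 ± 0.18 in CFA paw, 2.65 ± 0.20 in saline paw, 3.16 ± 0.54 in CFA muscle, 3.03 ± 0.11 in acid muscle and 3.15 ± 0.34 in saline muscle (SD, n = 3 each). Its skin minus muscle difference was −0.47 (adjusted p = 0.0739, limma). None of the 6 was called in any comparison in the deposited values, and all 6 differences between skin and muscle were negative, from −0.47 to −0.05 (median −0.15). Of 19938 genes in all, 11173 were negative in that comparison (median −0.04). P2ry6 was called lower in skin when saline paw replicate 1 was left out (−0.52, adjusted p = 0.0319), as were 12.6% of all genes. Adora2a and Adora2b were not analysed here, and Adora3 shared its probe set with Tmigd3 and was not used.

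Of 8 measured ectonucleotidases, the enzymes that break nucleotides down outside the cell, 2 were lower and 0 higher in skin (median −0.04 over the list and over all genes). Of all genes 3.12% were called lower and 11.6% higher in skin. Nt5e, which encodes CD73, and Acpp, which encodes prostatic acid phosphatase, both turn AMP into adenosine, and both are known in non-peptidergic nociceptors. Acpp read 6.30, 6.29 and 6.37 in CFA paw, 5.51, 6.97 and 6.54 in saline paw, 7.06, 7.78 and 7.78 in CFA muscle, 7.41, 6.34 and 7.07 in acid muscle, and 7.68, 8.21 and 7.05 in saline muscle. The skin arrays did not overlap with those of saline and CFA muscle, as was so for 5.91% of all genes. Acid muscle reached into the skin range. The skin minus muscle difference of Acpp was −1.26 (SE 0.26, 95% interval −1.82 to −0.70, adjusted p = 0.00542, limma).

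Nt5e read 3.43, 3.20 and 2.84 in CFA paw, 2.93, 3.54 and 3.31 in saline paw, 4.15, 4.41 and 4.36 in CFA muscle, 4.25, 3.01 and 3.84 in acid muscle, and 4.59, 4.21 and 3.68 in saline muscle. Its skin arrays also lay below all saline and CFA muscle arrays (5.91% of all genes had no overlap there). Acid muscle again reached into the skin range, at 3.01. Its difference was −1.03 (SE 0.21, 95% interval −1.47 to −0.58, adjusted p = 0.00435). Both genes were called under all 22 alternatives, with differences from −2.16 to −1.05 for Acpp and from −1.65 to −0.92 for Nt5e. Between the CFA groups Nt5e was called by itself (−1.15, adjusted p = 0.0299), where 0.667% of all genes were called lower. Of the non-peptidergic markers 8 of 15 were lower in skin as well, while Mrgpra3 and Mrgprx1 were higher (1.68, adjusted p = 0.000445, and 1.80, adjusted p = 0.000336). The list had array means from 4.76 to 5.50 in skin and from 5.16 to 5.98 in muscle, and its part in this result was not tested. The next ectonucleotidases by p were Entpd8 (−0.27, adjusted p = 0.158), which was dim with a mean of 2.43, and Entpd3 (0.33, adjusted p = 0.233). Both were called without saline paw replicate 1, Entpd8 at −0.38 (adjusted p = 0.00721) and Entpd3 at 0.46 (adjusted p = 0.0446). In that fit 32.6% of all genes were called.

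Among 13 measured genes of adenosine transport and turnover, 3 were higher and 1 was lower in skin neurons (median 0.07). The shares over all genes were 11.6% higher and 3.12% lower. Leaving out saline paw replicate 1 gave 4 higher and 3 lower, where 20% of all genes were higher and 12.6% lower. Slc29a4 encodes a transporter of monoamines that also carries adenosine at acid pH. It read 6.46, 6.57 and 6.19 in CFA paw, 5.00, 6.38 and 6.51 in saline paw, 4.65, 4.93 and 4.80 in CFA muscle, 4.64, 4.29 and 4.90 in acid muscle, and 4.38, 4.73 and 4.65 in saline muscle. All 6 skin arrays lay above the 6 arrays of saline and CFA muscle, where 5.91% of all genes had no overlap. Acid muscle reached 4.90, and the lowest skin array was saline paw replicate 1. The difference was 1.496 (SE 0.21, adjusted p = 0.000463, limma), and it was called under all 22 alternatives.

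Slc29a3, a nucleoside transporter of lysosomes, was higher by 1.05 (SE 0.17, adjusted p = 0.000984), and Ampd3, an AMP deaminase, by 0.72 (SE 0.18, adjusted p = 0.0149). Adk, adenosine kinase, which turns adenosine back into AMP inside the cell, fell to 5.20 in skin neurons, against 6.16 in muscle neurons (difference −0.96, SE 0.25, adjusted p = 0.0195). Slc29a3 lost its call with array SD in the model, Ampd3 under quantile normalization, cyclic loess and that model, and Adk when arrays were centred on their medians. Slc29a3 and Slc29a4 were also called between the saline groups (1.03, adjusted p = 0.0415, and 1.38, adjusted p = 0.0335). Between the CFA groups these 2 genes, Ampd3 and Slc29a2, a nucleoside transporter of the cell membrane, were called higher. The share of all genes called higher was 1.87% between the saline groups and 5.75% between the CFA groups.

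**Figure D3:**
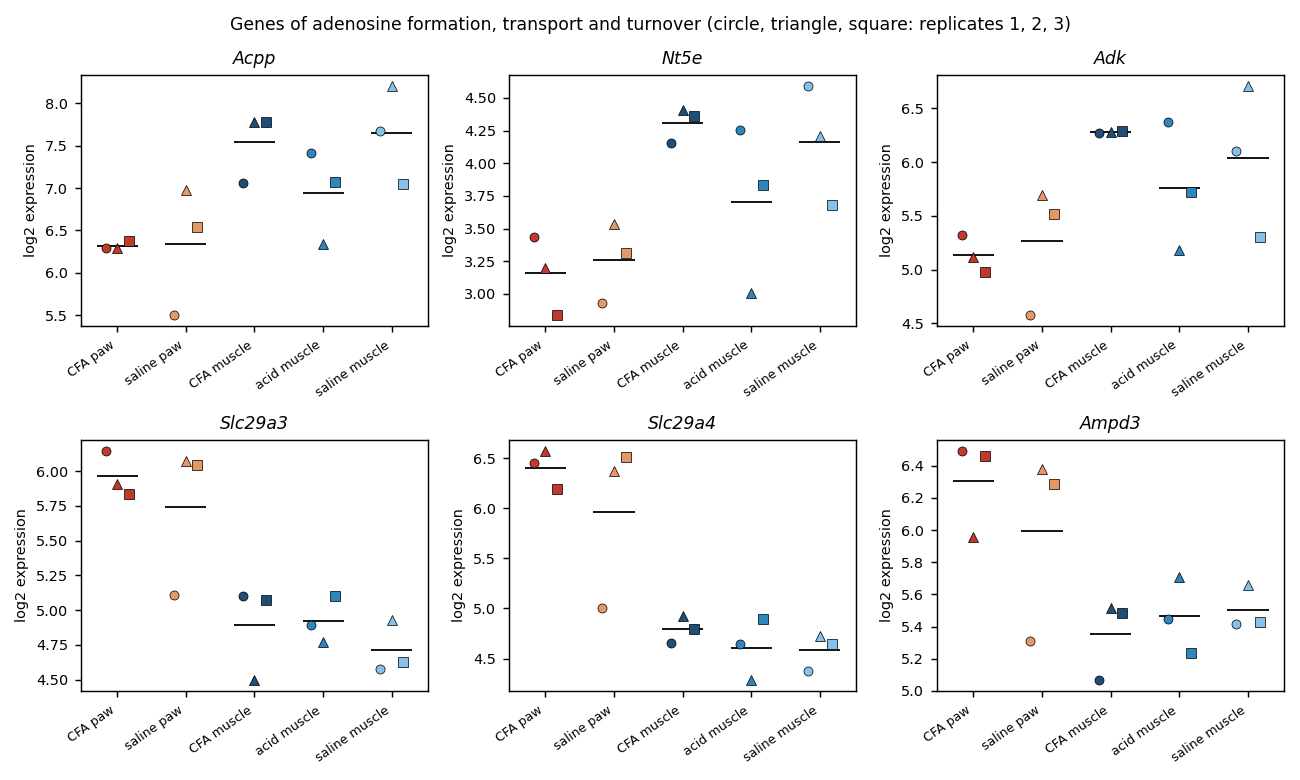
Deposited log2 expression of 6 genes of adenosine formation, transport and turnover on each array, with 1 scale per gene. Circles, triangles and squares are replicates 1, 2 and 3, and the line is the group mean. Acpp, Nt5e and Adk had lower means in both skin groups than in the 3 muscle groups, and Slc29a3, Slc29a4 and Ampd3 had higher ones, with saline paw replicate 1 the skin array closest to muscle for these 3.

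Of 23 measured genes of the G protein signalling that P2Y and A1 receptors use, 7 were higher and 0 lower in skin neurons. They were the G protein subunits Gng3 (1.91, adjusted p = 0.00182), Gnao1 (1.54, adjusted p = 0.00135), Gnb1 (1.29, adjusted p = 0.00075) and Gnai2 (1.07, adjusted p = 0.00433), the phospholipase Plcb1 (0.83, adjusted p = 0.00147), the protein kinase Prkce (0.74, adjusted p = 0.0293) and the potassium channel subunit Kcnj3 (0.73, adjusted p = 0.00714). All 7 lost the call with array SD in the model, Gnb1 also under quantile normalization and cyclic loess, and Prkce was called under only 10 of 22 alternatives. The median difference of the list was 0.08 and that of all genes −0.04. Of all genes 11.6% were called higher and 3.12% lower in skin. Without saline paw replicate 1 the list had 10 higher and 2 lower in skin, where 20% of all genes were higher and 12.6% lower. Gnaq, the G protein through which P2Y1 and P2Y2 act, differed by 0.22 (adjusted p = 0.515). Many receptors use these proteins, so the list is not specific to purines.

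Of 11 measured genes for ATP release (median −0.11), 1 was called, where 14.7% of all genes were called. It was the volume-regulated anion channel subunit Lrrc8a, which was higher in skin (1.03, SE 0.19, adjusted p = 0.0027, limma). Lrrc8a lost the call with array SD in the model. When saline paw replicate 1 was left out, the list had 2 higher and 2 lower, against 20% and 12.6% of all genes. The pannexin gene Panx1 differed by 0.09 (95% interval −0.20 to 0.38), and Slc17a9, the vesicular nucleotide transporter, by −0.27 (adjusted p = 0.182).

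The treatment comparisons ask what inflammation or acid does to these neurons. For CFA paw against saline paw, CFA muscle against saline muscle, acid muscle against saline muscle and CFA muscle against acid muscle, limma called 0 of 9 receptors, and 0 of all genes (0%). At an unadjusted p under 0.05 there was 1 receptor in each, against 1.21% of all genes for CFA paw, 2.6% for CFA muscle, 2.85% for acid muscle and 3.14% for CFA against acid. The ectonucleotidases, adenosine genes, ATP release genes, signalling genes and inflammasome genes had 0 members called in each as well.

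In skin neurons that receptor was P2rx6. It read 3.77, 3.52 and 3.76 in CFA paw, against 3.97, 4.75 and 4.29 in saline paw. The CFA arrays all lay below the saline arrays (2.99% of all genes did so). The difference was −0.65 (SE 0.22, 95% interval −1.12 to −0.19, unadjusted p = 0.00905, adjusted p = 1, limma). It was −0.84 without saline paw replicate 1, and with array weights it was −0.67 and called (adjusted p = 0.0329), as were 0.627% of all genes. That fit leaned on saline paw replicate 3 (weight 7.18, against 0.959 for replicate 2 and 0.148 for replicate 1). The difference of P2rx3 was 0.37 (95% interval −0.29 to 1.04) and rested on saline paw replicate 1, without which it was −0.02, while without saline paw replicate 2 it was 0.60. That of P2rx4 was −0.08, and −0.43 without the same array.

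In muscle neurons after CFA the receptor was P2rx2, at 3.00, 2.96 and 3.15 in CFA muscle, against 3.20, 3.23 and 3.55 in saline muscle. The difference was −0.29 (95% interval −0.56 to −0.02, unadjusted p = 0.0355, adjusted p = 1), and −0.18 without saline muscle replicate 3. P2ry2 also did not overlap and was above saline muscle by 0.24 (95% interval −0.12 to 0.59), and for P2rx2 the CFA arrays all lay below. Of all genes 3.63% lay above and 4.1% below without overlap. After acid the receptor was P2ry2, at 3.21, 3.43 and 3.19 in acid muscle, against 2.70, 2.91 and 2.93 in saline muscle. The difference was 0.43 (95% interval 0.08 to 0.78, unadjusted p = 0.0209, adjusted p = 1), and 3.98% of all genes lay above saline muscle without overlap. The difference of P2rx4 after acid was −0.47 (95% interval −1.06 to 0.12), and −0.26 without acid muscle replicate 2. These comparisons share the saline muscle arrays.

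CFA muscle and acid muscle were compared directly. P2rx5 read 2.88, 2.77 and 3.14 in CFA muscle, against 3.14, 3.33 and 3.50 in acid muscle, a difference of −0.40 (95% interval −0.70 to −0.09, unadjusted p = 0.0136, adjusted p = 1). P2rx2 differed by −0.26 (95% interval −0.53 to 0.01). For both genes all CFA arrays lay below all acid arrays, as they did for 5.23% of all genes, though for P2rx5 the closest arrays both read 3.14.

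**Figure D4:**
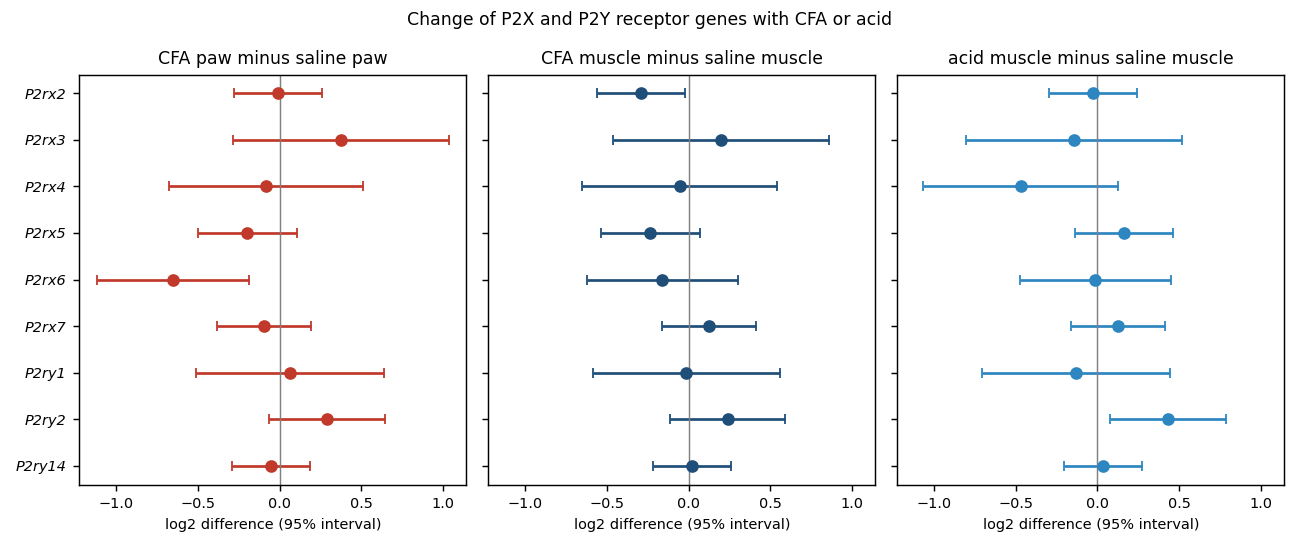
Log2 difference of the 9 receptors with CFA or acid against the saline group of the same tissue, with 95% intervals from limma. The interval excluded 0 for P2rx6 in skin neurons, P2rx2 after CFA in muscle neurons and P2ry2 after acid, and none passed after adjustment over all genes.

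The effect of CFA was not shown to differ between muscle and skin neurons for any of the receptors. The difference of the CFA effects (muscle minus skin) ran from −0.28 for P2rx2 to 0.49 for P2rx6, whose 95% interval was −0.16 to 1.15, and all adjusted p were 1.00. Without saline paw replicate 1 it was 0.68 for P2rx6, −0.29 for P2rx2 and 0.22 for P2rx3, whose value with all arrays was −0.17, and all adjusted p were again 1.00. For P2rx6 it was 0.29 without saline paw replicate 2, and for P2rx2 it was −0.17 without saline muscle replicate 3. Of all genes 0 were called and 1.63% had an unadjusted p under 0.05, with 0 of the 9 receptors among them.

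Genes whose pattern over the 15 arrays was most like that of a receptor were ranked by Pearson's r among genes above the dim limit, as a description of arrays that share groups and scaling. For P2rx3 these were Prkcd (0.93), Kcnip4 (0.93), Cds2 (0.93), Aplp2 (0.93) and Luzp2 (0.93), and r was from 0.87 to 0.88 without saline paw replicate 1. For P2rx5 they were Tlcd3b (0.88), Sod1 (0.86), Ksr2 (0.85), Gfod2 (0.85) and Whamm (0.85). For P2ry2 they were Ccz1 (0.86), Klhl26 (0.82), Adcy3 (0.80), Znrf1 (0.80) and Trhde (0.80).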

How the data were processed

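RNA of 15 samples in 5 groups was measured on microarrays. The deposited log2 expression values, 1 per probe set and array, were made by the authors with RMA and Partek (no version given), per the submitters' processing notes. The log base is not stated, and the range of the values fits log2. They were used as deposited, and groups came from the sample titles. Names came from the platform's probe table: of 35556 probe sets, 21789 had 1 symbol, 1621 had several and were not used, and for 999 genes with more than 1 probe set that with the highest mean was taken, which left 19938 genes.

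All 15 arrays entered a model of 5 group means in limma 3.58.1 in R 4.3.3 (10 residual degrees of freedom, prior degrees of freedom 4.32) and checked on simulated data. Tests were two-sided, p was adjusted by Benjamini-Hochberg over 19938 genes, and the threshold was 0.05. The number of arrays limits the precision. The labels call the replicates biological but name no animals, so p-values measure the spread between these samples.

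The receptors and the gene lists were chosen with earlier results of these data known. All listed receptors are named. Members of the other lists are named when called, and up to 4 more per list by the smallest p between skin and muscle are given as values, while Gnaq and Panx1, and the marker genes Mrgprd, Mrgpra3, Mrgprx1 and Nefh, were chosen after their values were seen. The genes most like a receptor are the 5 with the highest r for P2rx3 and for each called receptor. Replicate numbers were checked as pairs and did not pair the samples. The alternatives were other scalings (median centring, quantile, cyclic loess), array SD in the model as a covariate, dim genes left out and array weights. Further ones were a robust prior with an intensity trend, probe sets of a gene averaged and a replicate block. The last were only the arrays compared, and each array left out in turn.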

Additional observations from a re-analysis of the deposited data

How the results depend on the processing

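Direction was compared only where a difference was called in the deposited values or under the alternative. Of 1252 receptor differences under alternatives, 1220 stayed on the same side of the threshold, 29 became called, 2 lost the call and 1 turned round, and 99 that were called in neither fit changed sign. The one that turned round was P2rx3 between CFA paw and CFA muscle, at −0.64 under cyclic loess (adjusted p 0.0185) and 0.07 as deposited. Between skin and muscle, receptors called were 4 of 9 under quantile normalization (8.79% of all genes), 4 under cyclic loess (11.5%), 1 with array SD in the model (the SD covariate, 4.34%) and 6 with array weights (45.8%). The genes called there were 1753 under quantile normalization (1205 higher and 548 lower), 2284 under cyclic loess (1563 higher and 721 lower), 866 with the SD covariate (431 higher and 435 lower) and 9139 with array weights (4739 higher and 4400 lower), against 2304 higher and 622 lower as deposited. Between saline paw and saline muscle, 213 genes were called after median centring, 7379 with array weights and 0 with only the arrays compared, and receptors called were 1 under cyclic loess (2.3% of all genes), 1 with the SD covariate (1.86%) and 5 with array weights (37%). Between CFA paw and CFA muscle, 763 genes were called under quantile normalization, 444 with the SD covariate, 4054 with array weights and 3209 with only the arrays compared, and receptors called were 1 after median centring (5.43% of all genes), 2 under cyclic loess (5.55%) and 2 with array weights (20.3%). Between CFA paw and saline paw, array weights called 125 genes and 1 receptor, P2rx6. The weight was lowest for saline paw replicate 1 (0.148) and highest for saline paw replicate 3 (7.18). The cause of these changes was not tested.

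With each array left out in turn, genes called ran from 1782 (without saline paw replicate 3) to 6499 (without saline paw replicate 1) between skin and muscle, with 2 to 5 receptors. They ran from 51 (without saline paw replicate 3) to 3824 (without saline paw replicate 1) between the saline groups, with 0 to 2 receptors, and were 58, 217, 110 and 111 without saline paw replicate 2 and saline muscle replicates 1, 2 and 3. They ran from 527 (without CFA muscle replicate 1) to 832 (without CFA muscle replicate 3) between the CFA groups. Without CFA muscle replicate 1 they were 8 for CFA against saline muscle, 6 for CFA against acid muscle and 1 for the difference between CFA effects, and 0 otherwise. With the replicate block, 2601 genes and 2 receptors were called between skin and muscle, P2rx5 (adjusted p 0.0157) and P2ry2 (adjusted p 0.0257), and the block changed no receptor's call. Deviations of arrays with the same number correlated with r from −0.53 to 0.34 (median −0.04 over 30 pairs), so the numbers are no sign of pairing.

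P2rx2, P2rx7, P2ry2 and P2ry14 held only 9 to 13 distinct values over 15 arrays, and the other 5 receptors 14 or 15.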
